A study of Mus musculus with 22 samples.

Results

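The genes described here encode secreted and membrane-bound enzymes that cut or crosslink the extracellular matrix, together with the inhibitors of the former. They were chosen by symbol: the Mmp genes (matrix metalloproteinases, Mmp12 left out), the numbered Adamts genes (a disintegrin and metalloproteinase with thrombospondin motifs), Timp1 to Timp4 (tissue inhibitors of metalloproteinases), and Lox with Loxl1 to Loxl4 (lysyl oxidase and its relatives). There were 50 such genes among the 23420 in the count table, of which 22 were Mmp, 19 Adamts, 4 Timp and 5 lysyl oxidase genes. A filter on low counts passed 41 of the 50, namely 14 Mmp, 18 Adamts, all 4 Timp and all 5 lysyl oxidase genes.

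RNA of inguinal/mammary white adipose tissue (IWAT) was sequenced from 11 wild-type female C57Bl/6 mice after 16 weeks on chow (lean, 5 mice) or on a high fat diet with 60% of kcal from fat (obese, 6 mice). At about 20 weeks of age each mouse received 100000 E0771 cells, a mammary carcinoma line of the same strain, with PBS and Matrigel in the left pad, and PBS-Matrigel alone in the right pad. The left pad gave the tumor-associated library and the right pad the control library, so that 22 libraries formed 4 groups. The pads were taken 2 weeks later according to the series record and 2 to 3 weeks later according to the methods, without the inguinal lymph node, the most peripheral fat and the tumor, on which a sheet of fat of 1 to 2 mm was left. All mice carried a tumor on the left, so the control pad is that of a tumor-bearing mouse. Carcinoma cells of this line are mouse cells, and their reads cannot be told from those of the host by gene symbol.

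Matrix metalloproteinases are zinc enzymes that are made as inactive precursors and cleave collagens, gelatin, proteoglycans and many non-matrix proteins. ADAMTS enzymes cleave the large proteoglycans aggrecan and versican, or remove the amino-terminal propeptides of procollagens. TIMPs bind the active site of matrix metalloproteinases, and Timp3 also inhibits ADAMTS enzymes. Lysyl oxidases oxidise lysines of collagen and elastin so that fibrils become crosslinked and stiffer. In adipose tissue these proteins are known for the turnover of the matrix around adipocytes when the depot expands.

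A cluster of 9 of the Mmp genes lies on chromosome 9, between positions 7272514 and 7699585 of mm10, and includes the collagenases Mmp1a, Mmp1b, Mmp8 and Mmp13 and the stromelysins Mmp3 and Mmp10. Promoter sequences of 250 bases before the annotated start are shown for 4 genes from RefSeq (GRCm38.p6). Mmp13 and Mmp3 come from this cluster and were measured well enough to be tested. Mmp27, the third tested gene of the cluster, is not shown. Timp1 and Loxl4 were among the 4 genes called higher next to the tumor in both diets. Capitals mark the AP-1 motif TGANTCA and the TATA motif TATAAA in the Mmp promoters, and the GC box GGGCGG or its reverse complement CCGCCC in the others. The windows are chr9:7272264-7272513 (plus strand) for Mmp13, chr9:7445572-7445821 (plus strand) for Mmp3, chrX:20869916-20870165 (plus strand) for Timp1 and chr19:42612807-42613056 (minus strand, read 5′ to 3′ on that strand) for Loxl4.
Mmp13: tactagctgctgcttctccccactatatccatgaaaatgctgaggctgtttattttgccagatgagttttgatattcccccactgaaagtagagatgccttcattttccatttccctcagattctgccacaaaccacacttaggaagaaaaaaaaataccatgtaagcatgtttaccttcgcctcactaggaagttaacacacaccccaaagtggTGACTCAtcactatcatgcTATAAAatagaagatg
Mmp3: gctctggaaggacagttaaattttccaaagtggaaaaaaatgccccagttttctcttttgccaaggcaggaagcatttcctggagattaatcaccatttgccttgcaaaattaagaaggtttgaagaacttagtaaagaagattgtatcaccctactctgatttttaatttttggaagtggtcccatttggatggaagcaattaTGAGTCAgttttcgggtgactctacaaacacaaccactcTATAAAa
Timp1: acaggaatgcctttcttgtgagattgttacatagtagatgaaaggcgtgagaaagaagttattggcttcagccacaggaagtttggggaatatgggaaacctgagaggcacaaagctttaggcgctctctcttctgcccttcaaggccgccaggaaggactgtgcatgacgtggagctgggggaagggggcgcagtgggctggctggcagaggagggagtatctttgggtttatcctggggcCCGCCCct
Loxl4: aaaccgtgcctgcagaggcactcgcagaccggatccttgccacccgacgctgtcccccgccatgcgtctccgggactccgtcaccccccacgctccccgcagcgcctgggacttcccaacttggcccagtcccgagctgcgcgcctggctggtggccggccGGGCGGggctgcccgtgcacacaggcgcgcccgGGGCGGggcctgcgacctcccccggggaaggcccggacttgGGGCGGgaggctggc
In Mmp13 the AP-1 motif began 35 bases and the TATA motif 16 bases before the annotated start, and in Mmp3 they began 46 and 7 bases before it. The Timp1 window held 1 GC box, 8 bases before the start, and the Loxl4 window 3, at 89, 56 and 15 bases.

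RefSeq windows of 250 bases before to 50 bases after the start were matched for 32 of the 50 genes, and both strands were searched. The AP-1 motif occurred in 7 of these 32 genes (21.9%), against 8.97% of the 27025 genes with a window. All 7 were genes of the chromosome 9 cluster (Mmp1a, Mmp1b, Mmp3, Mmp7, Mmp10, Mmp13 and Mmp20). The window of Mmp27, a tested gene of that cluster, held no AP-1 motif, no TATAAA and no GC box. TATAAA occurred in 10 of the 32 (31.2%, against 15.7% of all genes) and the GC box in 19 (59.4%, against 38.2%). None of the 7 genes with the AP-1 motif held a GC box. The GC box was found in Mmp11, Mmp14, Mmp15, Mmp23, Mmp24, Mmp25 and Mmp28, and in Timp1, Timp2, Timp3 and Loxl4. Among the Adamts genes it was found in Adamts1, Adamts2, Adamts3, Adamts9, Adamts13, Adamts14, Adamts18 and Adamts20. No window was matched for Lox, Loxl1, Loxl2 or Loxl3. A motif match is a description of the letters in the window.

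Reads assigned to genes numbered 5759775 to 8598108 per library. Alignments off genes, ambiguous or not unique made up 57.0% to 65.9% of their sum with these. Expression is given as CPM, the counts of a gene relative to the library's assigned reads after TMM scaling. The adipocyte genes Adipoq and Plin1 were detected in every library. Some libraries stood apart. The obese tumor-associated libraries of mice 4 and 0 lay farthest along the first principal component (45.7% of the variance), at 147.8 and 107.7 against −59.02 to 75.0 in the other 20. Their summed CPM of 10 adipocyte markers was 1890 and 3176, against 7314 to 11914 in the other 4 libraries of that group. Mouse 4 also had the lowest sum of 10 fibroblast and progenitor markers (4371) and the highest sum of 6 proliferation markers (1680) of all libraries. The obese control libraries of mice 1 and 3 held skeletal muscle markers at 7347 and 266 CPM, against 25.5 to 44.7 in the other 4, and B and T cell markers at 475 and 442, against 3.72 to 13.8.

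In lean mice, 4 of the 41 genes were called higher next to the tumor (against 3.27% of all genes) and 0 lower (0.913%) (edgeR adjusted p under 0.05): Timp1, Loxl2, Loxl4 and Adamts4. That is 9.76% of the genes, against 4.18% of all 14458 genes tested. The all-gene share is itself unsteady: its 605 genes became 183, 228, 346, 353, 252 or 255 without lean tumor 2 or 0, lean control 2, lean tumor 3 or lean control 6 or 3 respectively, and 952 without obese tumor 4. In obese mice, 12 were called higher (26.8% of all genes) and 7 lower (27.7%), together 46.3% of the genes against 54.5% of all genes. The higher ones were Timp1, Mmp13, Adamts4, Adamts8, Loxl4, Adamts14, Loxl3, Loxl2, Lox, Mmp19, Adamts7 and Mmp14, and the lower ones were Timp4, Mmp15, Adamts5, Timp3, Mmp28, Adamts17 and Adamts10. The median log2 fold change of the 41 genes was 0.41 in lean and −0.03 in obese mice, against 0.01 and −0.02 over all genes tested. Positive log2 fold changes were measured for 34 of the 41 genes in lean mice (82.9%, against 51.4% of all genes tested) and for 20 in obese mice (48.8%, against 49%). In the 5 lean mice 22 of the 41 genes were higher in the tumor pad of every mouse and 2 lower in every mouse, and in the 6 obese mice 8 were higher and 5 lower in every mouse. Over all genes tested, 16.5% were higher and 13.5% lower in every lean mouse, and 18.6% and 19.7% in every obese mouse, against 53.7% and 4.88%, and 19.5% and 12.2%, of the 41. Without the obese tumor-associated library of mouse 4, which enters the shared estimate of the spread, the lean count was 7, and the obese count was 22. Over all genes tested, that fit called 952 in lean and 7279 in obese mice.

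**Figure D1:**
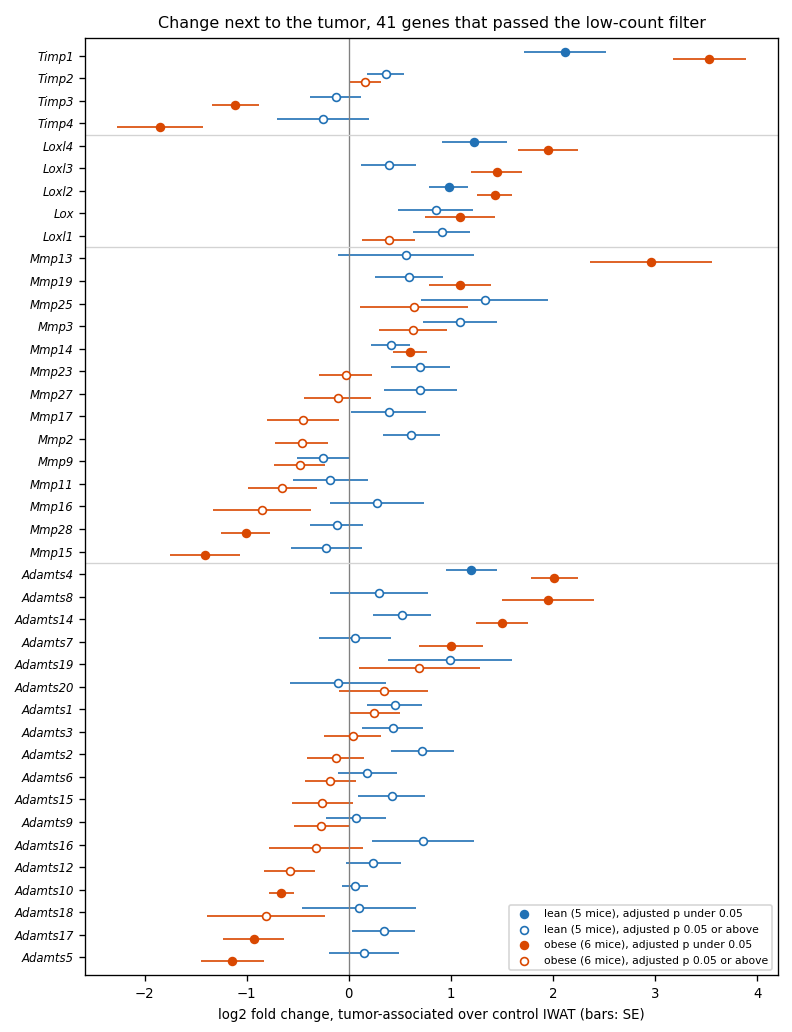
Log2 fold change (x axis) of tumor-associated over control IWAT for the 41 genes that passed the filter (y axis), in lean (blue, 5 mice) and obese mice (orange, 6 mice). Points are edgeR estimates, bars are standard errors, and filled points have an adjusted p under 0.05: 4 lean points are filled, all to the right of 0, while 19 obese points are filled, 12 to the right and 7 to the left.

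Among the inhibitors, Timp1 rose next to the tumor in both diets. Timp3 and Timp4 fell in obese mice and did not pass the test in lean mice, and Timp2 passed it in neither diet. Timp1, an inducible soluble inhibitor, stood at 2.67, 1.05, 2.45, 2.64 and 4.41 CPM in the lean control pads of mice 0, 2, 3, 6 and 9, and at 12.7, 19.7, 10.9, 6.95 and 7.72 CPM in their tumor pads. The obese control pads had a lowest, median and highest Timp1 level of 1.72, 5.24 and 6.04 CPM, and the obese tumor pads of 30.2, 45.7 and 85.8 CPM. No tumor-associated library overlapped the controls of its diet, and all 11 mice were higher in the tumor pad. The log2 fold change was 2.12 ± 0.40 (SE) in lean mice (adjusted p = 0.00442) and 3.53 ± 0.36 in obese mice (adjusted p = 9.52e-07). Between diets, Timp1 was 2.19 ± 0.36 higher in obese than in lean tumor pads on the log2 scale (adjusted p = 8.87e-05), with no overlap, while the difference between control pads was 0.78 ± 0.40 (adjusted p = 0.19). The difference of the tumor changes between diets was 1.41 ± 0.53 on the log2 scale and did not pass the test (adjusted p = 0.0828), though it did with DESeq2 (adjusted p = 0.0483).

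Timp3, which binds to the matrix and also inhibits ADAMTS and ADAM enzymes, had CPM values of 418, 347, 487, 306 and 482 in lean control pads and 383, 345, 396, 285 and 448 in lean tumor pads. In obese mice the lowest, median and highest Timp3 levels were 473, 603 and 759 CPM in control pads and 100, 298 and 445 CPM in tumor pads. The obese groups did not overlap, and all 6 mice were lower in the tumor pad. Timp3 fell by 1.11 on the log2 scale (SE 0.23, adjusted p = 0.00062) in obese mice, and its lean log2 fold change was −0.13 ± 0.25 (adjusted p = 0.94). All 5 lean mice were also lower in the tumor pad, by small amounts (log2 changes from −0.30 to −0.01). The exons of Timp3 share 1733 bases (21.3% of its exon length) with Syn3 on the other strand, and the strand setting of the counting was not given.

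Timp4, an inhibitor with high expression in adipose tissue, was the inhibitor that differed most between the diets in the control pads. Its lean control levels were 72.8, 43.7, 70.4, 42.1 and 62.0 CPM, its lean tumor levels 44.1, 63.7, 49.0, 27.8 and 60.1 CPM. Obese control pads held 97.8, 128 and 230 CPM (lowest, median, highest), all above the lean controls, and obese tumor pads held 7.04, 43.3 and 75.9 CPM, all below the obese controls. Timp4 fell next to the tumor in obese mice by 1.85 on the log2 scale (SE 0.42, adjusted p = 0.00121), with −0.25 ± 0.45 in lean mice (adjusted p = 0.936). Obese control pads exceeded lean control pads by 1.37 ± 0.44 on the log2 scale (adjusted p = 0.0359). That call was lost, with adjusted p from 0.053 to 0.0901, when any of the 5 lean control libraries or the obese control library of mouse 0 or 2 was left out. The lowest tumor-pad values were 7.04 (mouse 4) and 11.1 CPM (mouse 0), the libraries with the fewest adipocyte markers. Without both, the Timp4 change in obese mice was −1.39 (adjusted p = 0.000982) and that of Timp3 −0.85 (adjusted p = 0.000673).

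Timp2, a broadly expressed inhibitor that also takes part in the activation of proMMP2, ranged from 171 to 423 CPM over all libraries. Its log2 fold change next to the tumor was 0.36 ± 0.18 in lean mice (adjusted p = 0.321) and 0.16 ± 0.16 in obese mice (adjusted p = 0.425). Levels of the 4 inhibitors can be set side by side per kilobase of exon. On that scale Timp1 made up 1.02% to 3.25% of the TIMP transcripts in lean control pads, 5.14% to 12.8% in lean tumor pads, 1.21% to 4.44% in obese control pads and 20.9% to 43.4% in obese tumor pads. Timp3 made up 38.5% to 47.5% in obese control and 11.1% to 26.4% in obese tumor pads, and Timp4 11% to 20.5% and 0.893% to 7.16%. Timp2 held the largest mean share in both lean groups (53.3% and 58.4%) and in obese tumor pads (44.9%), and Timp3 in obese control pads (42.3%, with Timp2 at 40.5%). The summed TIMP level was 176 ± 26.6 CPM per kb (SD, n = 6) in obese control and 180 ± 41.8 (n = 6) in obese tumor pads, so the make-up differed between the obese pads while the sums lay within 1 SD of each other.

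**Figure D2:**
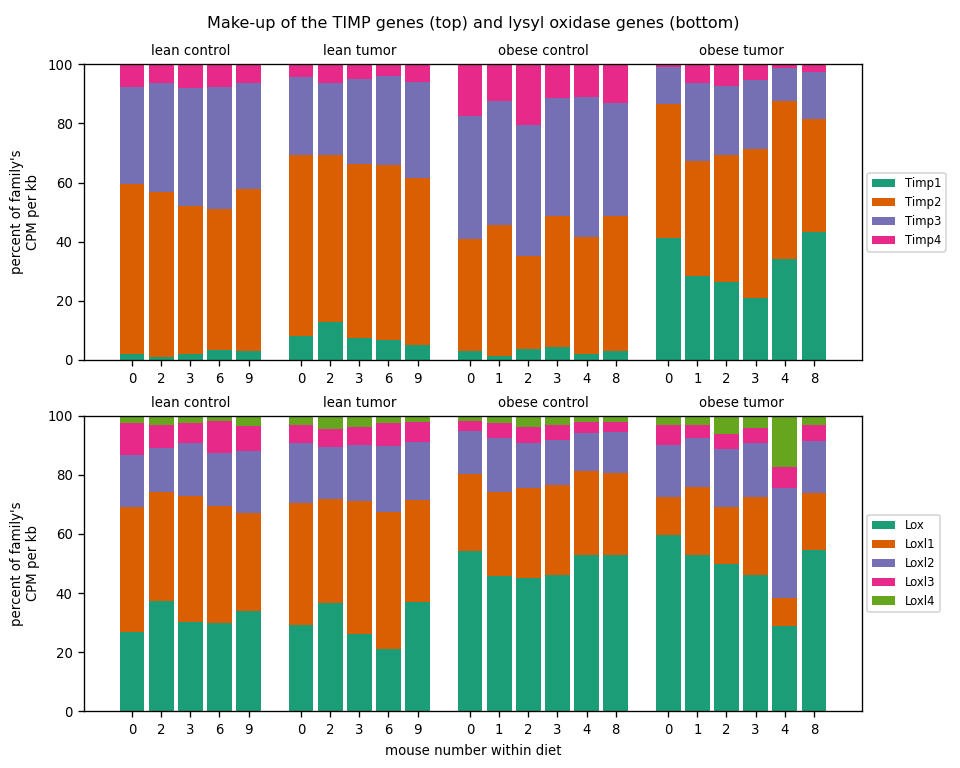
Share of each gene (y axis, percent of the family's summed CPM per kilobase of exon) in each library (x axis, mouse number within diet) for the TIMP genes (top) and the lysyl oxidase genes (bottom). The Timp1 segment takes 20.9% to 43.4% in the 6 obese tumor-associated libraries and at most 12.8% in the other libraries; mouse 4 of that group has the largest Loxl4 segment, 17.5%.

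All 5 lysyl oxidase genes had positive log2 fold changes next to the tumor in both diets, and this held under each of the alternatives tried. In lean mice 2 of the 5 rose (Loxl2 and Loxl4), and in obese mice 4 of the 5 (all but Loxl1), which is 40% and 80% of the family against 4.18% and 54.5% of all genes called in either direction. Loxl2, an oxidase that acts on basement membrane collagen IV, stood at 63.9, 43.7, 61.4, 52.3 and 77.8 CPM in lean control pads and 128, 132, 111, 102 and 118 CPM in lean tumor pads. The obese control pads ranged from 58.5 to 87.3 CPM (median 66.7) and the obese tumor pads from 138 to 293 CPM (median 161). Neither diet showed an overlap, with log2 fold changes of 0.98 ± 0.19 in lean (adjusted p = 0.00442) and 1.43 ± 0.17 in obese mice (adjusted p = 5.25e-06). Obese tumor pads were also above all lean tumor pads, by 0.67 ± 0.18 on the log2 scale (adjusted p = 0.00422).

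Loxl4, whose promoter with 3 GC boxes is printed above, had 7.43, 6.82, 6.43, 3.70 and 9.66 CPM in lean control pads and 15.4, 27.2, 18.3, 9.01 and 10.3 CPM in lean tumor pads. These groups overlapped, since mouse 6 reached 9.01 CPM in its tumor pad and mouse 9 had 9.66 CPM in its control pad. The lean log2 fold change was 1.23 ± 0.32 (adjusted p = 0.0337). It lost the call without the lean control library of mouse 0, 2, 3 or 6 or the lean tumor library of mouse 0, 2 or 3 (adjusted p from 0.0559 to 0.169), mouse 2 having the strongest weight with 0.95 when its tumor library was left out. Obese pads did not overlap, with 6.18 to 13.6 CPM (median 9.03) in control and 20.6 to 59.4 CPM (median 36.2) in tumor pads. There Loxl4 rose by 1.95 ± 0.29 on the log2 scale (adjusted p = 3.78e-05).

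Loxl3 and Lox passed the test in obese mice. Loxl3 had 33.4, 19.1, 19.3, 27.8 and 26.1 CPM in lean control pads, 33.9, 37.6, 29.3, 30.5 and 34.0 CPM in lean tumor pads, 13.5 to 20.3 CPM (median 17.7) in obese control pads and 26.8 to 101 CPM (median 33.7) in obese tumor pads. It rose by 1.45 ± 0.25 in obese mice on the log2 scale (adjusted p = 0.000155), with 0.39 ± 0.27 in lean mice (adjusted p = 0.576). Its exons share 535 bases (11.6%) with Htra2 on the other strand. The highest value, 101 CPM, was that of mouse 0, and without mice 0 and 4 the change was 1.15 (adjusted p = 8.11e-05).

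Lox, the enzyme for which the family is named, had the largest diet difference of the family. Its lean control values were 85.9, 95.2, 90.5, 77.6 and 110 CPM and its lean tumor values 164, 244, 135, 85.7 and 197 CPM. Obese control pads held 128, 210 and 289 CPM (lowest, median, highest), all above the lean controls, and obese tumor pads 111, 385 and 891 CPM. The lowest and highest of the last group were mice 4 and 0. The lean log2 fold change of Lox was 0.85 (adjusted p = 0.254), with all 5 lean mice higher in the tumor pad. Lean Lox was called with that comparison fitted alone (0.83, adjusted p = 0.0426). Lox rose next to the tumor in obese mice by 1.09 ± 0.34 on the log2 scale (adjusted p = 0.0109), and the groups overlapped. The call was lost without the tumor library of mouse 0 (0.77, adjusted p = 0.0506) and without the control libraries of mice 1 and 3 together (0.87, adjusted p = 0.0617). Between diets, Lox was higher in obese mice by 1.21 ± 0.36 in control pads (adjusted p = 0.0271) and by 1.45 ± 0.37 in tumor pads (adjusted p = 0.00314), both on the log2 scale. The control difference lost its call without the lean control library of mouse 0, 2, 3 or 6 or the obese control library of mouse 0 or 8 (1.10 to 1.22, adjusted p from 0.051 to 0.0685). Loxl1, which acts on elastin, had a lean log2 fold change of 0.91 ± 0.28 (adjusted p = 0.0753) without overlap and an obese one of 0.39 ± 0.26 (adjusted p = 0.201). Its level in the tumor library of obese mouse 4 was 25.7 CPM, below the 94.8 to 151 CPM of the other 5, and without that library both changes passed the test (0.90, adjusted p = 0.00121, and 0.58, adjusted p = 0.00262).

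Per kilobase of exon, the summed lysyl oxidase level was 61.1 ± 6.92 CPM (SD, n = 5) in lean control, 112 ± 19.7 (n = 5) in lean tumor, 88.3 ± 20.3 (n = 6) in obese control and 181 ± 82.5 (n = 6) in obese tumor pads. Lox made up 45.2% to 54.2% of it in obese control pads, above the 26.7% to 37.2% of lean control pads, and Loxl1 26.1% to 30.6%, below the 33.1% to 42.4% of lean control pads.

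**Figure D3:**
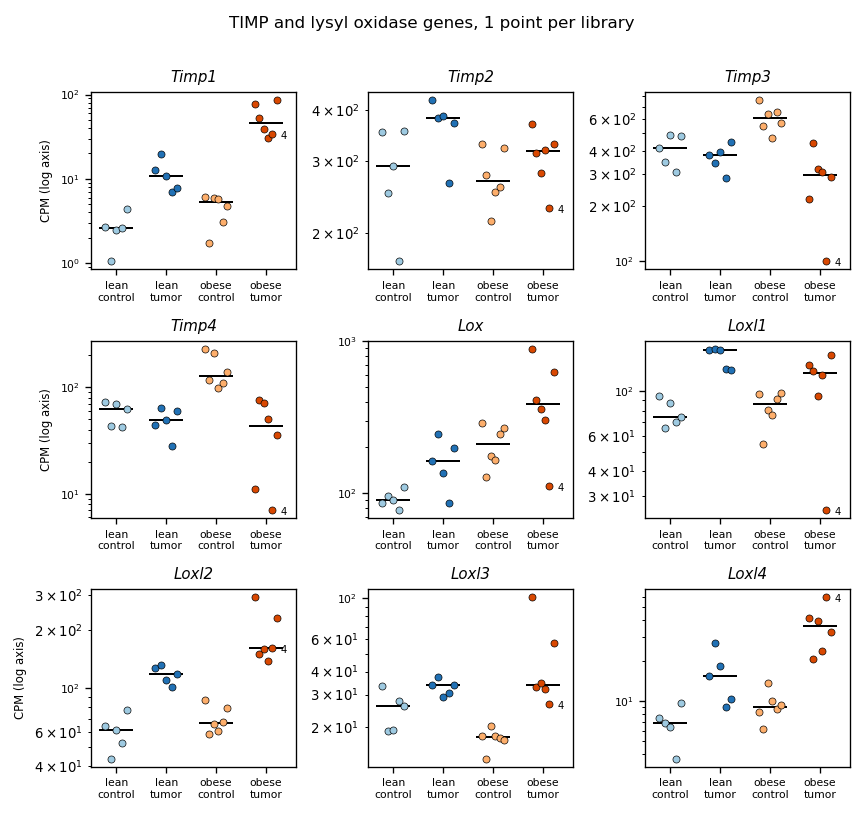
CPM on a log axis (y axis) of the 4 TIMP and 5 lysyl oxidase genes in the 4 groups (x axis), 1 point per library, with black lines at the group medians; the number 4 marks the obese tumor-associated library of mouse 4. Timp1 reaches 30.2 to 85.8 CPM in obese tumor pads against at most 6.04 CPM in obese control pads, and mouse 4 has the lowest Timp3, Timp4, Lox and Loxl1 values of its group.

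Of the 14 Mmp genes tested, 0 passed the test in lean mice with edgeR, where 5 had an unadjusted p under 0.05 and DESeq2 called 1, Mmp3. In obese mice 3 rose (Mmp13, Mmp19 and Mmp14) and 2 fell (Mmp15 and Mmp28), together 35.7% of the 14, a smaller share than the 54.5% of all genes. Mmp13, an interstitial collagenase, had 1.63, 1.40, 1.53, 0.704 and 2.37 CPM in lean control pads and 1.67, 3.11, 2.45, 0.644 and 3.55 CPM in lean tumor pads. The obese control pads held 0.144, 0.801 and 4.09 CPM (lowest, median, highest) and the obese tumor pads 3.75, 8.62 and 27.3 CPM, from 29 to 202 counts. All 6 obese mice were higher in the tumor pad, and the groups overlapped only through the control pad of mouse 2 and the tumor pad of mouse 1. Mmp13 rose by 2.96 ± 0.60 on the log2 scale in obese mice (adjusted p = 0.000521), against 0.56 ± 0.67 in lean mice (adjusted p = 0.847). The highest value was that of mouse 4, and without its library the change was 2.42 (adjusted p = 0.0015). Every obese tumor pad was above every lean tumor pad, with a log2 difference of 2.26 ± 0.62 (adjusted p = 0.00535).

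Mmp3 (stromelysin-1), the other cluster gene whose promoter is printed, was far more abundant than Mmp13 in these tissues: per kilobase its mean level was 65.2 against 4.08 CPM per kb in obese tumor pads and 45.4 against 0.571 CPM per kb in lean control pads. Its log2 fold change was 1.09 ± 0.36 in lean mice (adjusted p = 0.102) and 0.63 ± 0.33 in obese mice (adjusted p = 0.109), with 5 of 5 and 5 of 6 mice higher. The exception was mouse 4, at 30.4 CPM against 91.8 to 189 CPM in the other 5 tumor pads, and without that library both changes passed the test (1.07, adjusted p = 0.0264, and 0.81, adjusted p = 0.0168). The third tested gene of the cluster, Mmp27, ranged from 1.06 to 7.27 CPM and passed the test next to the tumor in neither diet.

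Mmp19, which cleaves basement membrane proteins, had 72.2, 49.0, 72.6, 78.8 and 78.7 CPM in lean control and 112, 119, 96.9, 101 and 98.9 CPM in lean tumor pads, without overlap but with an adjusted p of 0.426 (log2 fold change 0.59 ± 0.33). All 5 lean mice were higher in the tumor pad, and lean Mmp19 was called with that comparison fitted alone (0.57, adjusted p = 0.0185). In obese mice Mmp19 ranged from 55.0 to 116 CPM (median 82.4) in control and from 46.0 to 299 CPM (median 178) in tumor pads. It rose there by 1.09 ± 0.30 on the log2 scale (adjusted p = 0.00515), and mouse 4 was the only obese mouse in which it was lower in the tumor pad. Its exons share 789 bases (22.3%) with Tmem198b on the other strand. Mmp14, the membrane-type enzyme that activates proMMP2, is named here after its values were seen, as are Mmp2, Mmp9, Mmp17, Mmp23 and Mmp27. It rose in obese mice by 0.60 ± 0.17 (adjusted p = 0.00578). However, mice 0 and 4 had the highest levels (263 and 268 CPM), and without both the change was 0.26 (adjusted p = 0.136). In lean mice Mmp14 did not pass the test (0.41 ± 0.19, adjusted p = 0.279). The lean pads did not overlap, though, and all 5 lean mice were higher in the tumor pad. Lean Mmp14 was called with that comparison fitted alone (0.39, adjusted p = 0.0321).

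Mmp15, another membrane-type enzyme, was lower in obese than in lean tumor pads without overlap and fell next to the tumor in obese mice. Its values were 56.6, 57.0, 55.7, 61.1 and 49.2 CPM in lean control and 44.4, 29.4, 52.0, 68.5 and 45.6 CPM in lean tumor pads. In obese mice the lowest, median and highest values were 19.1, 35.2 and 50.2 CPM in control and 3.52, 14.4 and 21.7 CPM in tumor pads. Mmp15 fell in obese mice by 1.41 on the log2 scale (SE 0.34, adjusted p = 0.00176), with −0.22 ± 0.35 in lean mice (adjusted p = 0.919). Obese tumor pads were lower than lean tumor pads by −1.93 ± 0.35 on the log2 scale (adjusted p = 0.000224). Mmp28 (epilysin) fell in obese mice by 1.01 (SE 0.24, adjusted p = 0.0014), from 19.4 to 37.8 CPM in control pads (median 32.0) to 7.22 to 19.7 CPM in tumor pads (median 17.1). Lean control and tumor pads held 15.9 to 22.2 and 14.2 to 23.3 CPM of Mmp28.

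Mmp2 (gelatinase A), the most abundant Mmp gene per kilobase in lean mice, stood at 303, 229, 245, 140 and 322 CPM in lean control and 437, 430, 381, 240 and 399 CPM in lean tumor pads, and all 5 mice were higher in the tumor pad (log2 fold change 0.61 ± 0.28, adjusted p = 0.291). Obese control pads held 167 to 272 CPM (median 244) and obese tumor pads 55.5 to 257 CPM (median 172), with a log2 fold change of −0.46 ± 0.26 (adjusted p = 0.133). Obese tumor pads were lower than lean tumor pads by −1.16 ± 0.27 on the log2 scale (adjusted p = 0.00178), and by −0.91 (adjusted p = 0.00388) without mice 0 and 4. Mmp9 (gelatinase B) had an obese log2 fold change of −0.48 next to the tumor (adjusted p = 0.103), which passed the test at −0.69 (adjusted p = 0.0216) without the tumor library of mouse 4 and at −0.67 (adjusted p = 0.0455) without those of mice 0 and 4. It did not pass in lean mice. It was lower in obese than in lean mice in both pads, with log2 differences of −1.10 ± 0.25 in control (adjusted p = 0.00538) and −1.33 ± 0.26 in tumor pads (adjusted p = 0.000379). Its lean values ran from 13.1 to 22 CPM in control and 10.3 to 20.5 CPM in tumor pads, its obese values from 5.45 to 14.0 and from 3.61 to 9.88 CPM.

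Mmp11, Mmp16 and Mmp25 did not pass the test next to the tumor. Mmp11 (stromelysin-3) had an obese log2 fold change of −0.65 ± 0.34 (adjusted p = 0.107), which passed with the mouse as a block (−0.57, adjusted p = 0.035). Mmp16 had log2 fold changes of 0.28 ± 0.46 in lean (adjusted p = 0.926) and −0.85 ± 0.48 in obese mice (adjusted p = 0.136). Mmp25, a membrane-anchored leukocyte enzyme, had log2 fold changes of 1.33 ± 0.62 in lean (adjusted p = 0.286) and 0.64 ± 0.53 in obese mice (adjusted p = 0.31). Its highest obese control values, 6.89 and 4.00 CPM, came from mice 1 and 3, against 0.490 to 1.43 CPM in the other 4. These are the libraries with skeletal muscle and with B and T cell markers, and the part of either in these values was not tested. The obese Mmp25 change passed the test without the control library of mouse 1 (1.31, adjusted p = 0.0307) and without both (2.14, adjusted p = 0.00105).

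**Figure D4:**
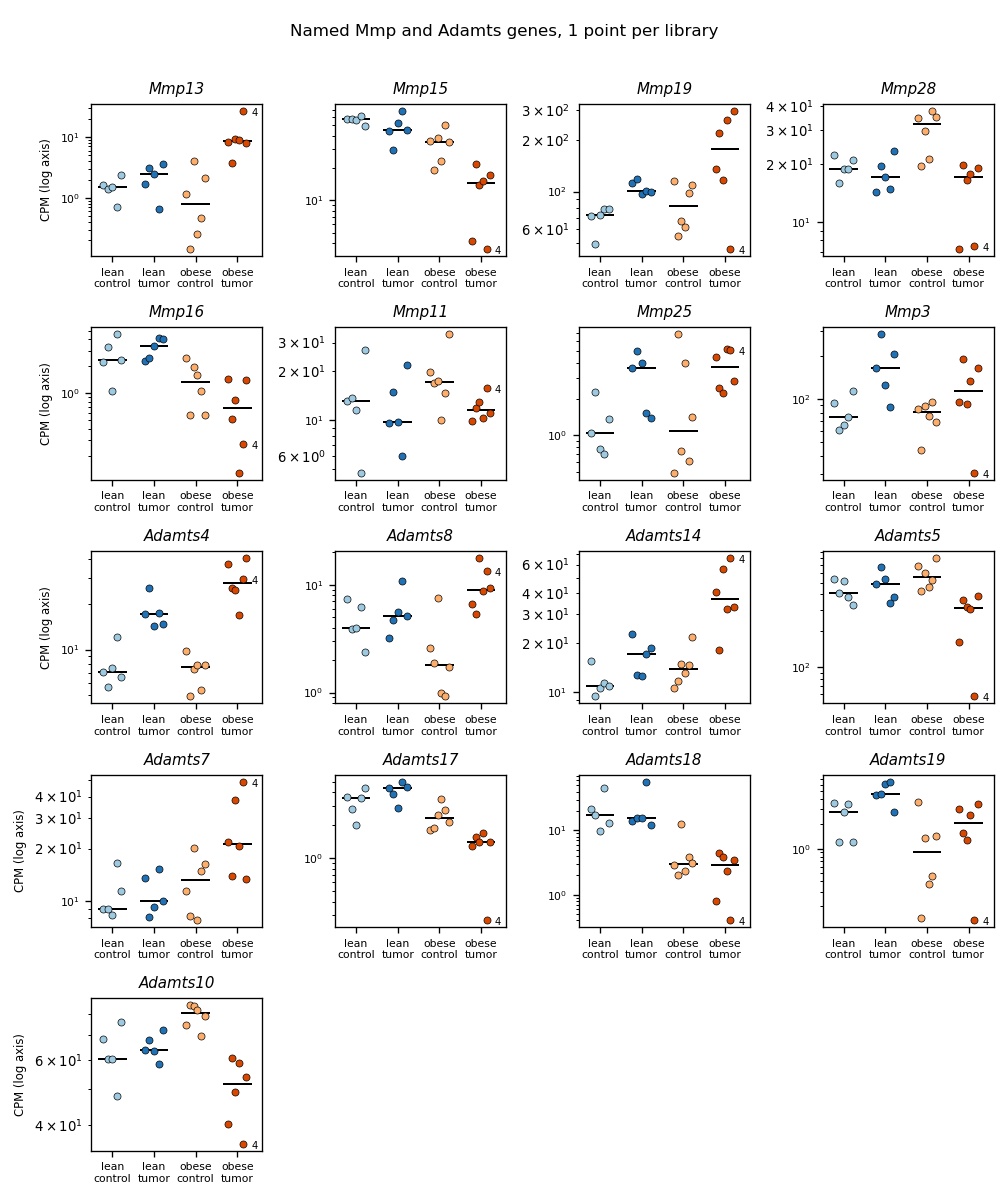
CPM on a log axis (y axis) of 17 Mmp and Adamts genes in the 4 groups (x axis), 1 point per library, with black lines at the group medians; the number 4 marks the obese tumor-associated library of mouse 4. Mmp13 and Adamts14 are highest and Mmp15, Adamts5, Adamts17 and Adamts18 lowest in obese tumor pads, and mouse 4 sits at the end of its group in each of these.

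Of the 18 Adamts genes tested, 1 rose in lean mice (Adamts4), and 4 rose and 3 fell in obese mice. These are 5.56% and 38.9% of the family, against 4.18% and 54.5% of all genes. Adamts4, an aggrecanase that also cleaves versican, had 7.08, 5.60, 7.50, 12.1 and 6.61 CPM in lean control and 17.3, 25.8, 14.4, 17.4 and 14.7 CPM in lean tumor pads. In obese mice it had 4.88 to 9.79 CPM (median 7.65) in control and 16.9 to 40.7 CPM (median 27.6) in tumor pads. No tumor pad overlapped the controls of its diet. Adamts4 rose by 1.2 ± 0.25 in lean (adjusted p = 0.00841) and by 2.01 ± 0.23 in obese mice (adjusted p = 3.51e-06), on the log2 scale. Adamts5, also an aggrecanase, did the opposite in obese mice. It held 532, 409, 521, 378 and 329 CPM in lean control, 486, 673, 538, 339 and 379 CPM in lean tumor, 423 to 802 CPM (median 562) in obese control and 57.4 to 387 CPM (median 310) in obese tumor pads. The obese groups did not overlap, and Adamts5 fell by 1.14 on the log2 scale (SE 0.31, adjusted p = 0.00461), with 0.15 ± 0.34 in lean mice (adjusted p = 0.959). Without mice 0 and 4 the fall was −0.79 (adjusted p = 0.00492). Per kilobase, Adamts5 remained above Adamts4 in every group, with means of 54.1 against 1.5 CPM per kb in obese control and 24.6 against 6.05 CPM per kb in obese tumor pads.

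Adamts14, a procollagen N-proteinase, had 15.6, 9.45, 10.6, 11.4 and 11 CPM in lean control, 22.7, 12.7, 12.5, 17.2 and 18.5 CPM in lean tumor, 10.6 to 21.6 CPM (median 13.9) in obese control and 18.1 to 65.9 CPM (median 37.0) in obese tumor pads. It rose in obese mice by 1.5 ± 0.25 on the log2 scale (adjusted p = 9.19e-05) and had 0.52 ± 0.28 in lean mice (adjusted p = 0.373). All 11 mice were higher in the tumor pad. The other procollagen N-proteinases, Adamts2 and Adamts3, did not pass the test in obese mice, with log2 fold changes of −0.13 ± 0.28 (adjusted p = 0.717) and 0.04 ± 0.28 (adjusted p = 0.913). In lean mice Adamts2 had a log2 fold change of 0.72 (edgeR adjusted p = 0.242), with all 5 mice higher in the tumor pad. It was called with that comparison fitted alone (0.70, adjusted p = 0.0414). Adamts3 was higher in the tumor pad of 4 of 5 lean mice.

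Adamts8 and Adamts7 rose in obese mice. Adamts8 ranged from 0.921 to 7.44 CPM (median 1.79) in obese control and from 5.30 to 17.7 CPM (median 8.96) in obese tumor pads, with all 6 mice higher in the tumor pad and a log2 fold change of 1.95 ± 0.45 (adjusted p = 0.00147). Its lean pads held 2.37 to 7.32 CPM in control and 3.18 to 10.8 CPM in tumor pads. Adamts7, which cleaves cartilage oligomeric matrix protein, rose by 1.00 ± 0.31 (adjusted p = 0.0108), from 7.75 to 20.1 CPM in control to 13.4 to 48.8 CPM in tumor pads. The Adamts7 call was lost without the tumor libraries of mice 0 and 4 (0.69, adjusted p = 0.0816) and without the control libraries of mice 1 and 3 (0.72, adjusted p = 0.0717).

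Adamts10, which binds fibrillin-1, and Adamts17, which is also linked to fibrillin fibres, fell in obese mice without overlap. Adamts10 had 68.2, 60.5, 60.3, 47.9 and 76.1 CPM in lean control, 63.8, 68.1, 63.3, 58.3 and 72.3 CPM in lean tumor, 69.7 to 84.3 CPM (median 80.2) in obese control and 35.6 to 60.8 CPM (median 51.5) in obese tumor pads. It fell by 0.66 on the log2 scale (SE 0.12, adjusted p = 0.000229). With edgeR it was the 1 gene of the 41 (2.44%) whose tumor change was called different between diets, by −0.72 ± 0.18 on the log2 scale (obese minus lean, adjusted p = 0.0434). Of all genes tested, 4.92% were called in that comparison, 2.58% higher and 2.34% lower. Those 711 genes became 1 without lean tumor 0 or obese tumor 0, 3568 without obese tumor 1 and 18 with no filter on low counts, and the count moved by over 1.5 times in 19 of the 22 fits with 1 library removed. The Adamts10 call was lost in 15 of 22 fits that each left out 1 library (adjusted p from 0.0511 to 0.0863): those without lean control 0, 2, 3 or 6, lean tumor 0, 2, 3 or 9, obese control 0, 1, 3, 4 or 8, or obese tumor 0 or 2. In that comparison 15 of the 41 genes had an unadjusted edgeR p under 0.05, as had 4760 of all 14458. DESeq2 called Adamts10 and also Timp1, Timp3, Mmp2, Mmp13, Loxl3, Adamts5 and Adamts17 there, where it called 2368 of 19839 genes. Adamts17 fell by 0.93 (SE 0.30, adjusted p = 0.0125), from 1.80 to 3.50 CPM in obese control to 0.271 to 1.68 CPM in obese tumor pads, the latter from 2 to 13 counts. Adamts18 and Adamts19 did not pass the test next to the tumor in either diet. The log2 fold changes of Adamts18 were 0.10 ± 0.56 in lean (adjusted p = 0.99) and −0.81 ± 0.58 in obese mice (adjusted p = 0.243), and those of Adamts19 0.99 ± 0.61 (adjusted p = 0.479) and 0.69 ± 0.59 (adjusted p = 0.331).

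Some markers of other cells were also called next to the tumor. Of 7 mast cell markers, 2 were called higher in lean mice (3.27% of all genes) and 1 lower in obese mice (27.7%). Of 3 tested neutrophil markers, 1 was called higher in lean and 1 in obese mice. With edgeR, 0 of 12 epithelial and 0 of 7 endothelial markers were called in lean mice (0 and 1 had an unadjusted p under 0.05). In lean mice 9 of 11 measured macrophage markers, 4 of 10 fibroblast and progenitor markers and 1 of 8 activated fibroblast markers were called higher next to the tumor (3.27% of all genes), and 0 of 10 adipocyte markers were called in either direction with edgeR (1 had an unadjusted p under 0.05, and DESeq2 called 0). The 10 adipocyte markers all had negative lean log2 fold changes, with a median of −0.59, and their sum went from 12245 to 16208 CPM (median 13392) in lean control pads to 8191 to 13632 CPM (median 9168) in lean tumor pads. The summed macrophage level went from 836 to 1704 CPM in lean control pads to 1844 to 3986 CPM in lean tumor pads, and from 1279 to 1756 CPM in obese control to 1902 to 5292 CPM in obese tumor pads. In obese mice 10 of 11 macrophage, 5 of 8 activated fibroblast and 6 of 6 proliferation markers were called higher, and 9 of 10 adipocyte, 11 of 12 epithelial and 5 of 7 endothelial markers lower, where 26.8% of all genes were called higher and 27.7% lower. The fibroblast and progenitor markers went both ways there, with 4 of 10 higher, 2 lower and a median log2 fold change of −0.03. Their summed levels in obese mice went from 13499 to 23933 CPM in control to 1890 to 11914 CPM in tumor pads for adipocytes, from 447 to 1166 to 207 to 582 CPM for epithelium, and from 112 to 256 to 485 to 1680 CPM for proliferation. The part of these cells in the changes above was not tested. In bulk tissue, fewer cells of a type and less RNA per cell cannot be told apart.

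Control pads of obese and lean mice differed in 6 of the 41 genes, 14.6% against 17.1% of all genes tested (2468 genes, or 1606 without lean control 6). Higher in obese mice (9.54% of all genes) were Timp4 and Lox, described above, Adamts6 and Mmp23, and lower (7.53%) were Adamts18 and Mmp9. Adamts18 had 21.8, 17.5, 9.95, 45.1 and 13.2 CPM in lean and 2.01 to 12.6 CPM (median 3.04) in obese control pads, a log2 difference of −2.24 ± 0.57 (adjusted p = 0.0105). The same gene had the largest diet difference of the set in tumor pads, with 14.1, 15.4, 15.9, 57.5 and 12.2 CPM in lean and 0.406 to 4.40 CPM (median 2.92) in obese mice and no overlap (−3.15 ± 0.60, adjusted p = 0.000324). Without the obese control libraries of mice 1 and 3 the control difference was −1.92 (adjusted p = 0.0551). Epithelial markers summed to 1142 to 1962 CPM in lean and 447 to 1166 CPM in obese control pads, and to 1110 to 2234 and 207 to 582 CPM in the tumor pads. Their part in the Adamts18 difference was not tested. Adamts6 was higher in obese control pads by 1.06 ± 0.27 (adjusted p = 0.0119). It held 31.6 and 30.0 CPM in mice 1 and 3, against 10.9 to 20.6 CPM in the other 4, and without both the difference was 0.71 (adjusted p = 0.0938). Mmp23 was higher by 0.82 ± 0.28 (adjusted p = 0.0465), but 17 of the 22 refits that dropped a single library ended that call (adjusted p from 0.0504 to 0.109). It was also lost with RLE or upper-quartile scaling, with no filter on low counts, with at least 10 counts in every library and without obese control 1 and 3 (0.75 to 0.81, adjusted p from 0.0514 to 0.12). The 17 were all 5 lean control and all 5 lean tumor libraries, obese control 0, 1, 3 and 8, and obese tumor 0, 1 and 3.

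Tumor pads of obese and lean mice differed in 21 of the 41 genes (51.2%, against 47% of all genes tested), 9 being higher (24.7% of all genes) and 12 lower (22.4%) in obese mice. The inhibitors and lysyl oxidases that passed the test were all on the higher side: Timp1, Lox, Loxl4 (1.17 ± 0.30, adjusted p = 0.00329) and Loxl2. The other higher genes were Mmp13, Adamts14 (1.29 ± 0.26, adjusted p = 0.000569), Adamts7 (1.22 ± 0.33, adjusted p = 0.00532), Adamts4 and Adamts6 (both 0.70). The 12 lower genes were all proteases: Adamts18, Mmp16, Mmp15, Adamts17, Mmp9, Mmp2, Adamts3, Mmp17, Mmp27, Adamts15, Adamts5 and Adamts10. Mmp16, a membrane-type enzyme, had 2.27, 2.49, 3.40, 4.12 and 4.02 CPM in lean and 0.129 to 1.44 CPM (median 0.679) in obese tumor pads, the latter from 1 to 10 counts, with no overlap (−2.09 ± 0.48, adjusted p = 0.00157). Adamts17 had 4.39, 3.89, 2.85, 5.02 and 4.48 CPM in lean and at most 1.68 CPM in obese tumor pads (−1.69 ± 0.31, adjusted p = 0.000221). The tumor comparisons and the diet comparisons share libraries, so their results are not independent of each other. The calls of Mmp17, Mmp27, Adamts4, Adamts5 and Adamts10 in this comparison were lost without the tumor libraries of obese mice 0 and 4, with log2 differences of −0.64, −0.88, 0.58, −0.50 and −0.23. Leaving out 1 library also ended calls, for Mmp17 without lean tumor 0, 2 or 6 or obese tumor 0 or 4, for Mmp27 without lean tumor 0, 2 or 9, for Adamts4 without lean tumor 9, for Adamts5 without lean tumor 0, 2 or 3 or obese tumor 0, and for Adamts6 without lean tumor 0, 2, 3 or 6 or obese tumor 0, 3 or 8.

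Further calls appeared when a library that stood apart was left out. Without obese tumor 4, Mmp19 differed between tumor pads (0.97, adjusted p = 0.00317, against 0.77 and 0.0515 with all libraries), and so did Loxl3 (0.64, adjusted p = 0.0477). The same fit called Mmp23 in lean mice (0.68, adjusted p = 0.0443) and Adamts5 for the difference of the tumor changes (−1.09, adjusted p = 0.0484). It also called Timp3 (0.57, adjusted p = 0.0187), Adamts10 (0.33, adjusted p = 0.0314), Mmp28 (0.61, adjusted p = 0.0451) and Adamts3 (−0.69, adjusted p = 0.0453) between control pads. Without obese tumor 0 and 4, Mmp15 (−0.74, adjusted p = 0.0169) and Loxl3 (−0.54, adjusted p = 0.0229) were called between control pads. Without obese control 1 and 3, Adamts12 was called lower next to the tumor in obese mice (−0.78, adjusted p = 0.016), Mmp28 higher between control pads (0.82, adjusted p = 0.0367) and Adamts19 lower between tumor pads (−1.29, adjusted p = 0.0432).

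**Figure D5:**
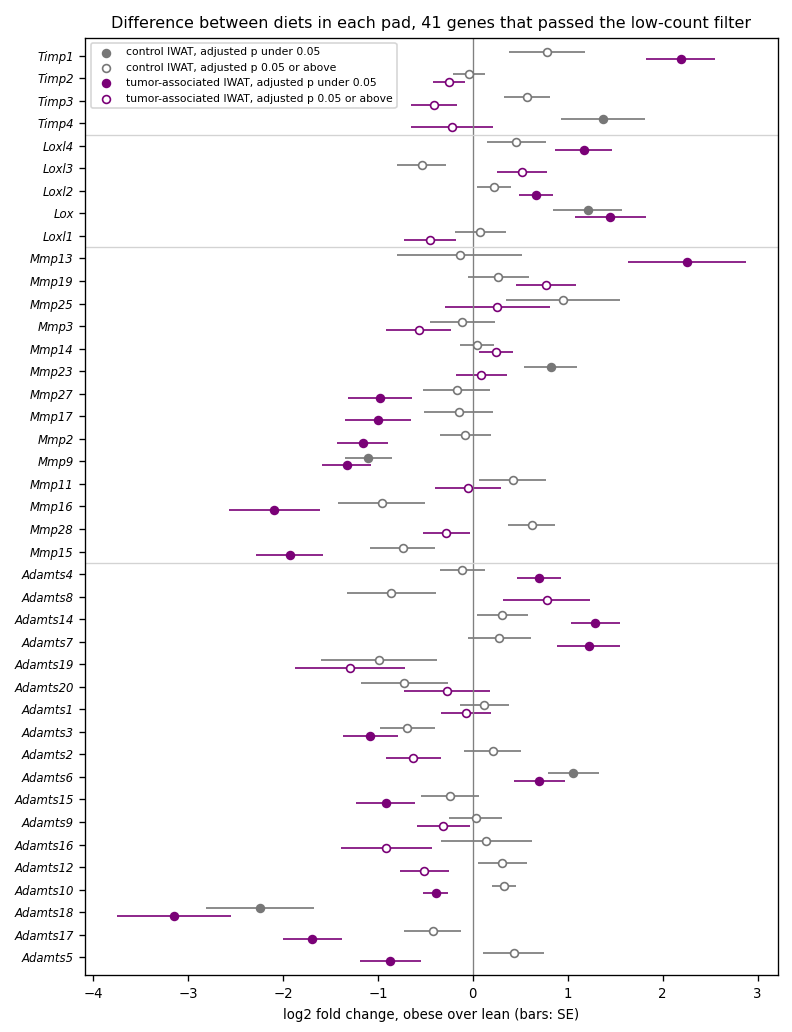
Log2 fold change (x axis) of obese over lean mice for the 41 genes that passed the filter (y axis), in control IWAT (grey) and tumor-associated IWAT (purple). Points are edgeR estimates, bars are standard errors, and filled points have an adjusted p under 0.05: 6 points are filled for control pads and 21 for tumor pads, with Adamts18 farthest to the left.

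Lists of other genes of the same pathway were counted in the same way, and the shares called in either direction stand against 4.18% of all genes tested in lean and 54.5% in obese mice. Of 28 tested matrix substrates, 11 were called higher next to the tumor in lean mice and 0 lower, with a median log2 fold change of 0.71, and 12 higher and 4 lower in obese mice (median 0.45), which is 39.3% and 57.1% of the list. Vcan (versican, a substrate of Adamts4 and Adamts5) rose by 1.84 ± 0.22 in lean (adjusted p = 7.62e-05) and by 2.67 ± 0.21 in obese mice (adjusted p = 1.38e-07), and Fbn1 (fibrillin-1) by 1.38 ± 0.34 (adjusted p = 0.0226) and 1.34 ± 0.31 (adjusted p = 0.00123). Of 15 procollagen processing and other crosslinking genes, 3 rose in lean mice, and 8 rose and 1 fell in obese mice (20% and 60%). The lean calls of Fbn1 and P4ha3 were lost in 6 and 2 of 22 fits with 1 library removed (adjusted p from 0.0512 to 0.0867 and from 0.0562 to 0.065). P4ha3, a subunit of prolyl 4-hydroxylase, rose by 2.28 ± 0.52 in lean (adjusted p = 0.0167) and 3.48 ± 0.48 in obese mice (adjusted p = 2.19e-05), and Bmp1, the procollagen C-proteinase, by 0.70 in both diets (adjusted p = 0.00111 and 3.55e-05).

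The plasminogen system, which can activate Mmp precursors, had 1 of 7 genes higher in lean mice and 3 higher and 1 lower in obese mice (14.3% and 57.1%). Plaur, the urokinase receptor, rose by 2.00 ± 0.23 in obese mice (adjusted p = 3.53e-06), from a mean of 16.2 to 64.8 CPM, with 0.65 ± 0.27 in lean mice (adjusted p = 0.208). The difference between these changes was called (1.35 ± 0.35, adjusted p = 0.0463), but the call was lost in 16 of the 22 fits with 1 library removed and in 19 of 30 alternatives in all (adjusted p from 0.0511 to 0.0897). Of 9 other inhibitors and activators of metalloproteinases, 1 rose in lean mice, and 1 rose and 4 fell in obese mice (11.1% and 55.6%). Those with lower levels included Spock2, an extracellular proteoglycan (−1.86 ± 0.32 on the log2 scale, adjusted p = 0.000133), and Reck, a membrane-anchored inhibitor of Mmp enzymes (−1.03 ± 0.25, adjusted p = 0.00223). Furin, a convertase that removes the propeptide of membrane-type Mmp precursors, rose by 0.52 ± 0.12 (adjusted p = 0.00121). Of 9 ADAM genes, 0 passed in lean mice with edgeR (4 had an unadjusted p under 0.05, and DESeq2 called 0) and 3 rose in obese mice (33.3%), among them Adam17 by 0.81 ± 0.12 (adjusted p = 3.38e-05). Of 6 genes for ADAMTS-like proteins, 0 passed in lean mice (0 with an unadjusted p under 0.05, and DESeq2 called 0), and 2 rose and 1 fell in obese mice (50%). The obese shares of the substrate, plasminogen and inhibitor lists lie near that of all genes, and that of the ADAM list below it.

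Of 20 tested genes for inducers, meaning cytokines, growth factors and transcription factors known to act on promoters of this set, 1 rose in lean mice, and 10 rose and 1 fell in obese mice, 55% against 54.5% of all genes. Il1b rose in obese mice by 3.41 ± 0.50 on the log2 scale (adjusted p = 3.41e-05), from a mean of 1.06 to 11.6 CPM. Fosl1, a component of AP-1, rose by 3.56 ± 0.68 (adjusted p = 0.000331), from 3.69 to 44.2 CPM, with lean means of 0.331 and 0.461 CPM. Tgfb1 rose by 0.99 ± 0.13 (adjusted p = 1.38e-05) and Runx2, a transcription factor known for its action on Mmp13, by 1.03 ± 0.18 (adjusted p = 0.000136).

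Of the 50 genes, 9 did not pass the filter: Mmp1a, Mmp1b, Mmp7, Mmp8, Mmp10, Mmp20, Mmp21, Mmp24 and Adamts13. All but Mmp21, Mmp24 and Adamts13 belong to the chromosome 9 cluster. Mmp10 (stromelysin-2) had 1 to 5 counts in each of the 6 obese tumor libraries, 1 count in 1 of the 6 obese control libraries and 0 counts in all 10 lean libraries. Mmp8 (neutrophil collagenase) had 4 to 7 counts in each obese tumor library, 0 to 3 in obese control, 0 to 4 in lean control and 1 to 10 in lean tumor libraries. Mmp1b had up to 5 counts in obese tumor libraries, and 157 bases of its exons (10.8%) lie opposite Mmp12 exons on the other strand. They were tested in the edgeR and DESeq2 fits made without that filter. Mmp10 was then called higher in obese tumor than in obese control pads by edgeR (adjusted p = 0.00191), while DESeq2 gave an unadjusted p of 0.0126 and no adjusted p. Between tumor pads Mmp10 was called higher in obese mice by both (adjusted p = 0.00116 and 0.0254). Mmp8 was called higher in obese tumor than in obese control pads by both (adjusted p = 0.0144 and 0.0134), and these pads did not overlap, at 0.516 to 0.985 against 0 to 0.372 CPM. No call was made in these fits for the other 7 genes. With so few counts no fold change is given.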

How the data were processed

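RNA of tumor-associated and control IWAT of 11 mice was sequenced after depletion of ribosomal RNA. According to the processing notes and methods, the authors checked reads with FastQC, aligned them to mm10 with STAR 2.4.0f and counted them per gene with HTSeq. The strand setting and the annotation used are not given in the sources used here. The deposited table holds raw counts for 23420 gene symbols in 22 libraries, and 5 HTSeq total lines were left out of library sizes and tests. The lines for no feature, ambiguous and not unique alignments made up 57.0% to 65.9% of their sum with the gene counts. Totals per library ran from 5759775 to 8598108, which limits the precision of genes with few counts.

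Groups were taken from the sample labels, and the replicates were separate mice. Counts were tested with edgeR 4.0.16 in R 4.3.3 (TMM scaling, filterByExpr by group, quasi-likelihood test, all 22 libraries in 4 groups) and adjusted by Benjamini-Hochberg over the 14458 genes tested at a threshold of 0.05. CPM are TMM-scaled counts from edgeR's cpm function, divided by the summed exon length (GENCODE M21) where genes were compared with each other. The scripts were tested on simulated data. Alternatives were DESeq2 1.42.0, other scalings and filters, fits of single comparisons, a blocking term for the mouse, and refits that dropped 1 library each. The 2 alternatives that leave out pairs of libraries were chosen after seeing the data.

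The gene set and the lists were chosen with earlier results of these data known. All Timp and lysyl oxidase genes and the 8 Mmp and 8 Adamts genes with the largest absolute log2 fold changes in obese mice were described by rule, with any called in lean mice or in the difference between diets, and other genes named were chosen after their values were seen. Same-numbered libraries of a diet are the pads of 1 mouse: their deviations from the group means had a median r of 0.508 for lean mice, where 5 of 5 pairs exceeded 0.1, and of 0.168 for obese mice, where 4 of 6 did.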

Additional observations from a re-analysis of the deposited data

Results flagged for a closer look

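Each named gene was tested in each of the 4 groups for a single value far from the others, and 8 of these 104 tests found one. Chance alone would give about 1 in 20 for independent tests of normally distributed values. These tests share libraries, so their number is not set against that rate. The obese tumor-associated library of mouse 4 had 27.3 CPM of Mmp13, above the 3.75 to 9.25 CPM of the other 5, and 0.271 CPM of Adamts17, below 1.28 to 1.68 CPM. This library also had the lowest adipocyte marker sum (1890 CPM) and the highest proliferation marker sum (1680 CPM), and their part in these values was not tested. Lean mouse 2 had 49 CPM of Mmp19 in its control pad, below 72.2 to 78.8 CPM in the others, and 25.8 CPM of Adamts4 in its tumor pad, above 14.4 to 17.4 CPM. The control pad of obese mouse 2 had 7.44 CPM of Adamts8 (others 0.921 to 2.61 CPM) and 12.6 CPM of Adamts18 (others 2.01 to 3.84 CPM). Adamts18 stood at 57.5 CPM in the tumor pad of lean mouse 6, against 12.2 to 15.9 CPM in the others. Adamts19 stood at 3.75 CPM in the control pad of obese mouse 0, against 0.144 to 1.43 CPM.

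The change of Adamts10 next to the tumor differed between the diets in a test of the difference itself, by −0.72 on the log2 scale (obese minus lean, edgeR adjusted p = 0.0434). All 6 obese mice were lower in the tumor pad, and 3 of 5 lean mice were higher. The call was lost in 15 of 22 fits that each left out 1 library (adjusted p from 0.0511 to 0.0863). It was also lost with no low-count filter and without obese tumor 0 and 4 (adjusted p = 0.0581 and 0.0504). Of all genes tested, 4.92% were called in that comparison.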

How the results depend on the processing

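No result changed direction past the threshold among 31 alternatives, and the obese calls of Timp1, Timp3, Timp4, Loxl2, Loxl3, Loxl4, Mmp13, Mmp15, Mmp19, Mmp28, Adamts4, Adamts5, Adamts8, Adamts10, Adamts14 and Adamts17 held in all that could be fitted. Counts of called genes moved by over 1.5 times as follows, and the cause was not tested unless the smaller number of genes or libraries gives it. With each comparison fitted alone, lean mice gave 12 calls (4 in the report) and control pads 11 (6). Over all genes tested, these fits called 1437 of 13750 in lean mice (605 of 14458 in the report). Between control pads they called 3270 of 13823 (2468 of 14458). Without the obese tumor libraries of mice 0 and 4, lean mice gave 7, control pads 12 and the difference of the tumor changes 0 (1). Over all 14517 genes tested there, the counts were 1175, 3677 and 199 (605, 2468 and 711 in the report). With at least 10 counts in every library, which left 30 genes to test, tumor pads differed in 13 genes (21). Over all genes they differed in 5429 of 11621 (6802 of 14458). DESeq2 called 8 genes in the difference, and no gene was called there without the low-count filter (0). Over all genes these fits called 2368 and 18 of 19839 (711 of 14458 in the report). Leaving out 1 library in turn gave 3 to 7 calls in lean mice, 18 to 22 in obese mice, 3 to 10 between control pads, 17 to 23 between tumor pads and 0 to 11 for the difference. The highest lean, obese and control counts came without obese tumor 4 and the 11 without obese tumor 1. The control count was 3 without lean control 0, 2, 3 or 6 or obese control 0. Over all genes, leaving out 1 library gave 183 to 952 calls in lean and 6915 to 8403 in obese mice. It gave 1606 to 3428 between control pads, 5902 to 7464 between tumor pads and 1 to 3568 for the difference.

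With the mouse as a block, 4 genes were called in lean mice, 20 in obese mice and 1 in the difference. Over all 14458 genes tested, the counts were 669, 7680 and 604. Among the 41 genes, the block gained the obese call of Mmp11 (−0.57, adjusted p = 0.035 with edgeR) and changed no other call in these comparisons. It could not be fitted for the comparisons between diets, which are between mice. Totals of 5759775 to 8598108 counts leave genes with few counts, such as Mmp16 and Adamts17 in obese tumor pads, with wide errors.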
